A study of Arabidopsis thaliana with 12 samples.

Results

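Seedlings of Arabidopsis thaliana met heat for the first time at 43 °C or at 38 °C, and these 2 groups were compared. The members are the 3 libraries labelled heat shock and the 3 labelled priming, 6 of the 12 libraries of the series, chosen from the labels. All plants were wild-type Col-0, sampled as whole seedlings with fully opened cotyledons. They were grown in shaken mineral water at 21 °C by day and 19 °C by night. The priming group was 6 days old and was held at 38 °C for 30 min. The heat shock group was 7 days old and was held at 43 °C for 30 min, with no earlier heat. The unheated controls set beside them, also 3 libraries, were 6 days old. The remaining 3 libraries, the primed heat shock group, entered the fit but not the comparison. Those seedlings were 7 days old when held at 43 °C for 30 min. Their earlier heat is given as 38 °C for 2 h, followed by 22 h of recovery at 21 °C. The group labels give 30 min, where the general treatment protocol gives 2 h for both temperatures. Heating was done in a water bath under light. No group was unheated at 7 days, so temperature and 1 day of age cannot be told apart in any difference below.

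Total RNA was depleted of ribosomal RNA before sequencing, so transcripts of the nucleus, the plastid and the mitochondrion were counted together. Aligned reads numbered 94632872, 126358753 and 72075150 in the priming libraries 1 to 3 and 111993655, 109923505 and 129161546 in the heat shock libraries. Left-over ribosomal RNA took 0.421% to 0.934% of the reads over the 12 libraries and was set aside. Libraries with the same replicate number were harvested on 1 date. Separate cultures are not mentioned in the labels, and the p-values therefore measure a spread among samples that may be technical. Levels are CPM, counts relative to library size after TMM scaling, which sets the bulk of the sequences level between libraries. Differences are log2 of 43 °C over 38 °C ± SE, and a sequence is called higher or lower at a Benjamini-Hochberg adjusted p under 0.05 in the quasi-likelihood test of edgeR. In whole seedlings, fewer cells of a type and less RNA per cell cannot be told apart.

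When proteins unfold in heat, class A1 heat shock factors are released to activate genes of chaperones and of further factors such as HSFA2. The chaperones hold unfolded proteins (small HSPs), refold them (HSP70, HSP60), mature their clients (HSP90) or pull aggregates apart (HSP101 and the ClpB proteins). Heat shock factors bind repeats of the bases GAA in alternating orientation, the heat shock element.

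Transcripts of heat proteins held a far smaller share of the counts after 43 °C than after 38 °C. The 60 loci of small HSPs and of chaperones of the cytosol, plastid and mitochondrion held 11.7%, 14.0% and 12.6% of the counts in the priming libraries. They held 1.22%, 1.27% and 1.11% in the heat shock libraries, and 0.619%, 0.563% and 0.658% in the controls. The 43 °C libraries thus lay between the controls and the 38 °C libraries, with no overlap. The mean was 1.20% ± 0.0862 (SD, n = 3) against 12.8% ± 1.16, a difference of -11.6 percentage points (exact two-sided permutation test, p = 0.1, the smallest that 3 against 3 can give). Within the harvest dates 1, 2 and 3 the difference was -10.5, -12.7 and -11.5 points.

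**Figure D1:**
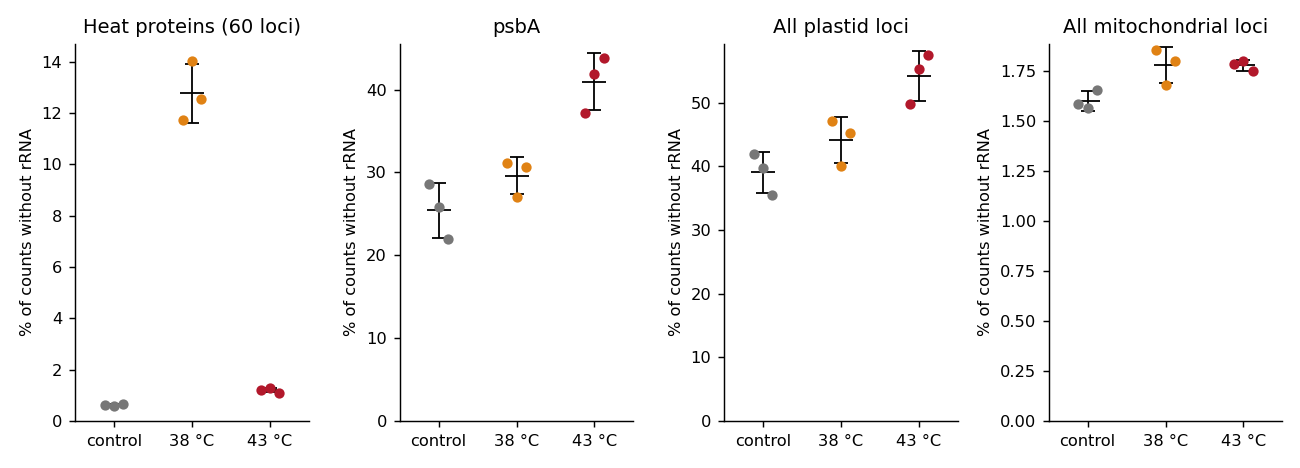
Percentage of counts without ribosomal RNA (vertical axes) held by heat proteins, by the plastid transcript psbA, by all plastid loci and by all mitochondrial loci, for each control, 38 °C and 43 °C library (points) with the mean ± SD of 3 (bars). Heat proteins stood at 11.7% to 14.0% after 38 °C and at 1.11% to 1.27% after 43 °C.

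HSFA2 (AT2G26150), the heat-induced factor that prolongs the response, lies on chromosome 2 at 11135624 to 11137792 on the plus strand (RefSeq annotation of TAIR10.1, 3 exons). It stood at 1505, 1644 and 1657 CPM in the priming libraries, at 169, 214 and 185 CPM in the heat shock libraries and at 1.35, 1.37 and 1.49 CPM in the controls. The difference was -3.08 ± 0.14 (adjusted p = 1.09e-10). The groups did not overlap, and the 43 °C libraries were above every control.

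HSP101 (AT1G74310, chromosome 1, 27936508 to 27940369, minus strand, 6 exons) codes for the cytosolic disaggregase on which heat tolerance rests in Arabidopsis. It stood at 21461, 20855 and 20619 CPM after 38 °C and at 642, 854 and 755 CPM after 43 °C, with 40.5, 36.8 and 37.2 CPM in controls. The difference was -4.81 ± 0.18 (adjusted p = 1.00e-11), again with the 43 °C libraries between the other groups. The locus overlaps another annotated gene, so part of its counts may belong to that gene.

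HSP21 (AT4G27670, chromosome 4, 13818825 to 13819971, minus strand, 2 exons) codes for the plastid small HSP. It stood at 432, 510.1 and 423 CPM after 38 °C, at 3.37, 4.46 and 3.43 CPM after 43 °C and at 0.355, 0.331 and 0.268 CPM in controls. The difference was -6.92 ± 0.17 (adjusted p = 1.59e-13). Its 43 °C libraries lay above the controls and far below the 38 °C libraries.

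Promoters of 4 genes that were lower after 43 °C, chosen after their values were seen, are shown because each holds the long heat shock element just before its gene. The sequence runs 5′ to 3′ on the gene's strand and ends 1 base before the annotated gene start, from the RefSeq genome of assembly TAIR10.1. Capitals mark the long element, searched as GAA, TTC and GAA, or as TTC, GAA and TTC, with any 2 bases between neighbouring triplets. These 2 forms read as each other on the opposite strand. The window is 250 bases, except for HSFA2, where it is 158 bases and stops at the edge of the divergent gene ftsh4.
HSFA2 (chr2:11135466-11135623, plus strand): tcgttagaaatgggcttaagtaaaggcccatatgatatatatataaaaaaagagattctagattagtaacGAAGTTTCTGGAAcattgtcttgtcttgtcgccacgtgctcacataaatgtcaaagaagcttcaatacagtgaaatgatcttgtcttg
HSFA7B (chr3:23398986-23399235, plus strand): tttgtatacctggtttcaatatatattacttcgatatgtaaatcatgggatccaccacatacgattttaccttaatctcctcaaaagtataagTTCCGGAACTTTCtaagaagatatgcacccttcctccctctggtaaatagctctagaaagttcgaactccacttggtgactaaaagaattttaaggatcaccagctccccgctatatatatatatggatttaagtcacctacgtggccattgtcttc
HSP17.4-CI (chr3:16984868-16985117, minus strand): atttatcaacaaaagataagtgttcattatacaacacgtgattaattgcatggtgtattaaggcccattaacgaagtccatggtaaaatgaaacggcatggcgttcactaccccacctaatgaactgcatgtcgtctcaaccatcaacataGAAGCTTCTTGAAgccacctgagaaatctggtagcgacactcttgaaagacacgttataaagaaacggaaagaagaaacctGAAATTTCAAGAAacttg
GOLS1 (chr2:19370479-19370728, minus strand): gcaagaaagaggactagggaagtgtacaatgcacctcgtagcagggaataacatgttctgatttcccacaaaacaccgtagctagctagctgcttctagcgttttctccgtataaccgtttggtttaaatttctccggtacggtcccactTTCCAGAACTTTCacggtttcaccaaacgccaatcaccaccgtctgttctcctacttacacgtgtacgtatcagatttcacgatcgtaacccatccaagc

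The element starts 88 bases before the gene in HSFA2, 157 bases in HSFA7B, 100 bases in GOLS1, and 99 and 18 bases in HSP17.4-CI. Over 300 bases (250 before to 50 after the start), 0.526% of the promoters of 22259 nuclear protein-coding loci tested held it. Among loci lower after 43 °C the share was 0.926% (66 of 7130), and among those higher 0.343% (23 of 6709). Among the 194 loci lower by a log2 of at least 3 it was 7.73% (15 promoters). A short form, GAANNTTC or TTCNNGAA, each of which reads the same on both strands and lies within the long one, was in 19.1% of all promoters and in 64 of those 194. By list, the long element was in 2 of 19 promoters of small HSPs, 3 of 21 of heat shock factors and 3 of 22 of cytosolic chaperones. In the ethylene list it was in 2 of 13. ERF1A and ERF2, which were higher after 43 °C, hold it as well. The members of the heat lists were chosen with their changes known, and these shares are a description without a test.

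Over all 26159 sequences tested, 33.8% were higher after 43 °C and 29% lower. Of 23383 nuclear loci, 7311 were higher (31.3%) and 7249 lower (31%), and in 67.2% the 3 libraries of each group did not overlap. With a log2 of at least 1 as well, 16.3% of nuclear loci were higher and 8.3% lower. For a log2 of at least 3 the counts were 1131 higher (4.84%) and 204 lower (0.872%). With no scaling factor the median nuclear locus shifted by 0.38 and the split over all sequences moved from 8834 higher and 7598 lower to 12009 and 2851. Small differences are therefore read against that shift. Counts in each nuclear list below stand beside the 31.3% of nuclear loci higher and 31% lower.

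Small HSPs: 17 of 19 members were lower after 43 °C, beside 31% of nuclear loci, and the median difference was -5.06, beside 0.00 for all nuclear loci. The largest differences were in HSP26.5 (-7.83 ± 0.19), in HSP18.2 of the cytosolic class I (-7.50 ± 0.18), in HSP22.0 of the endoplasmic reticulum (-7.35 ± 0.19) and in HSP21 of the plastid. HSP18.2 stood at 822, 773 and 627 CPM after 38 °C, at 3.99, 4.73 and 3.54 CPM after 43 °C and at 0.400, 0.594 and 0.485 CPM in controls, so the heat groups were far apart and the 43 °C libraries lay above the controls. Members differed in how far they fell short. HSP17.6A-CI, another class I member, still reached 372, 496 and 437 CPM after 43 °C, against 3661, 3620.4 and 3253 CPM after 38 °C and 3.48, 2.79 and 4.31 CPM in controls (-3.01 ± 0.17). HSP17.4-CI, whose promoter holds the element at 2 places, stood at 723, 693 and 753 CPM after 38 °C, 21.9, 24.5 and 18.7 CPM after 43 °C and 0.733, 0.628 and 0.686 CPM in controls (-5.06 ± 0.13), and it overlaps another annotated gene. Class I genes are near-identical in part, and reads may have been split among them by the authors' alignment. HSP15.4 was lower by much less (-0.77 ± 0.18) and HSP21.7 was not called (-0.28 ± 0.13). HSP14.7 was called higher (1.89 ± 0.31) at 0.602 against 0.151 CPM. Its nearest expressed neighbour, AT5G47610, ends 627 bases before it on the same strand.

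Heat shock factors: 11 of 21 were lower and 5 higher. The heat-induced factors were among the lower ones. HSFA7B stood at 169.8, 183 and 157 CPM after 38 °C and 2.02, 2.48 and 2.08 CPM after 43 °C, with 0.242, 0.263 and 0.307 CPM in controls (-6.28 ± 0.14). HSFB2A (-2.81 ± 0.12), HSFB1 (-2.55 ± 0.10) and HSFB2B (-2.47 ± 0.11), factors of the repressor class, were lower too, as was HSFA7A (-1.69 ± 0.13). HSFA6B, at 0.185, 0.0396 and 0.0523 CPM after 43 °C and 1.22 to 1.37 CPM after 38 °C, differed by -3.77 ± 0.43, and by -4.78 without heat shock replicate 1. Among the constitutive activators the pattern was mixed. HSFA1A (0.31 ± 0.10) and HSFA1B (0.46 ± 0.12) were higher, HSFA1D (-0.47 ± 0.09) and HSFA1E (-2.24 ± 0.16) lower. HSFA1B overlaps the expressed gene SYP21. HSFA8 was higher by 0.95 ± 0.26, the most of the list. The number called higher was 8 with no scaling factor, 3 in a fit of the 6 libraries alone, 3 without priming replicate 2 and 2 without heat shock replicate 2. No factor was higher by a log2 of 1.

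The 6 coactivators and DREB2 factors were all lower. MBF1C, a heat-induced coactivator, stood at 3723, 3421 and 2887 CPM after 38 °C and 209, 283 and 254 CPM after 43 °C, with 42.2, 28.2 and 35.0 CPM in controls (-3.75 ± 0.18). DREB2A, a drought and heat factor that acts ahead of HSFA3, stood at 595, 525 and 472 CPM after 38 °C and 76.3, 97.3 and 91.8 CPM after 43 °C, with 14.4 ± 1.26 CPM (SD, n = 3) in controls (-2.58 ± 0.14). DREB2B (-2.36 ± 0.14) and DREB2C (-2.21 ± 0.18) were lower as well. MBF1C, DREB2A and DREB2B overlap another annotated gene.

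**Figure D2:**
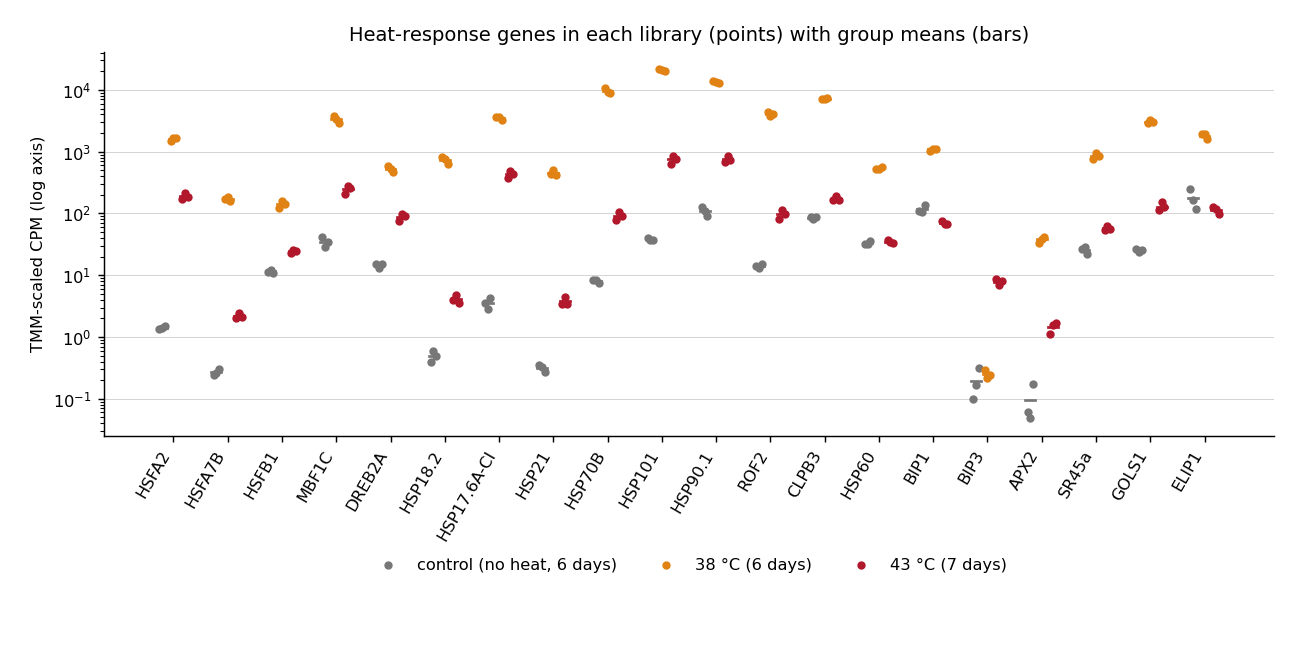
Scaled CPM (log axis) of 20 genes of the heat response in each control, 38 °C and 43 °C library (points; short bars are group means of 3). All but BIP3 were lower after 43 °C than after 38 °C. After 43 °C, HSP60 overlapped its control level, BIP1 lay below it, and HSFA2, HSP101 and GOLS1 above it.

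Cytosolic chaperones and cochaperones: all 21 tested members were lower, with a median of -3.40, and 1 further member (HSP70T-1) was too low to test. HSP70B, the strictly heat-inducible HSP70, stood at 10674, 9173 and 9081 CPM after 38 °C and 78.3, 107 and 92.1 CPM after 43 °C, with 8.38, 8.38 and 7.59 CPM in controls (-6.71 ± 0.19). The gap between the heat groups was the widest of this list. HSP90.1, the inducible HSP90, stood at 13789, 13189 and 12833 CPM after 38 °C and 669, 846 and 733 CPM after 43 °C (-4.15 ± 0.17). The nucleotide exchange factor FES1A (-5.83 ± 0.15), the immunophilin ROF2 (-5.39 ± 0.16) and HSP70T-2 (-6.04 ± 0.13) were lower by more. The mostly constitutive HSC70-1 (-1.68 ± 0.14) and the cochaperone HOP1 (-0.24 ± 0.08) were lower by less. Reads of HSP90.2, HSP90.3 and HSP90.4, and of the HSC70 genes, are uncertain because their sequences are near-identical.

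Chaperones of plastid and mitochondrion: 17 of 19 were lower and none higher, with a median of -2.31. CLPB3, the plastid disaggregase, stood at 7109.6, 7089 and 7314 CPM after 38 °C, 163, 191 and 168 CPM after 43 °C and 87.7, 82.2 and 86.1 CPM in controls (-5.37 ± 0.14). HSP60, a mitochondrial chaperonin, stood at 533, 531 and 573 CPM after 38 °C, 36.9, 34.1 and 33.3 CPM after 43 °C and 32.3, 32.1 and 35.2 CPM in controls (-3.97 ± 0.10), so its 43 °C and control libraries overlapped. CPN60B2 of the plastid chaperonin (-5.06 ± 0.12), the mitochondrial HSP70 MTHSC70-2 (-4.54 ± 0.15) and the mitochondrial disaggregase CLPB4 (-4.31 ± 0.12) were lower. MGE1 (-0.21 ± 0.10) and MTHSC70-1 (0.19 ± 0.10) were not called. The number called higher was 1 with no scaling factor, with upper-quartile factors or with the replicate block. CLPB3 and CPN60B2 overlap another annotated gene.

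Folding in the endoplasmic reticulum: 14 of 20 genes were lower and 2 higher, with a median of -1.48. BIP1 and BIP2, near-identical genes of the lumenal HSP70, fell by 3.96 and 3.74 on the log2 scale. BIP1 stood at 1041, 1109 and 1124 CPM after 38 °C, 74.1, 67.8 and 68.1 CPM after 43 °C and 110.5, 107 and 136 CPM in controls, so here the 43 °C libraries lay below the controls. ERDJ3A, a lumenal J protein, was lower (-4.81 ± 0.13), as was HSP90.7 (-2.24 ± 0.11). BIP3 (AT1G09080), a lumenal HSP70 known for its induction by unfolded proteins, went the opposite way. It stood at 0.296, 0.214 and 0.240 CPM after 38 °C, 8.57, 7.07 and 8.01 CPM after 43 °C and 0.0982, 0.165 and 0.312 CPM in controls (5.0 ± 0.30, adjusted p = 7.74e-09). The 43 °C libraries were above all others. BIP3 lies end to end with SRC2 (AT1G09070), 110 bases away, which stood at 649 CPM in controls and 693 CPM after 43 °C. The part of SRC2 in the BIP3 counts was not tested. The sensor IRE1B was higher (0.62 ± 0.09), and BZIP60, its splicing target, was not called (0.24 ± 0.13). Under no scaling factor or upper-quartile factors 4 genes were higher, and 1 (BIP3) was higher by a log2 of at least 1.

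**Figure D3:**
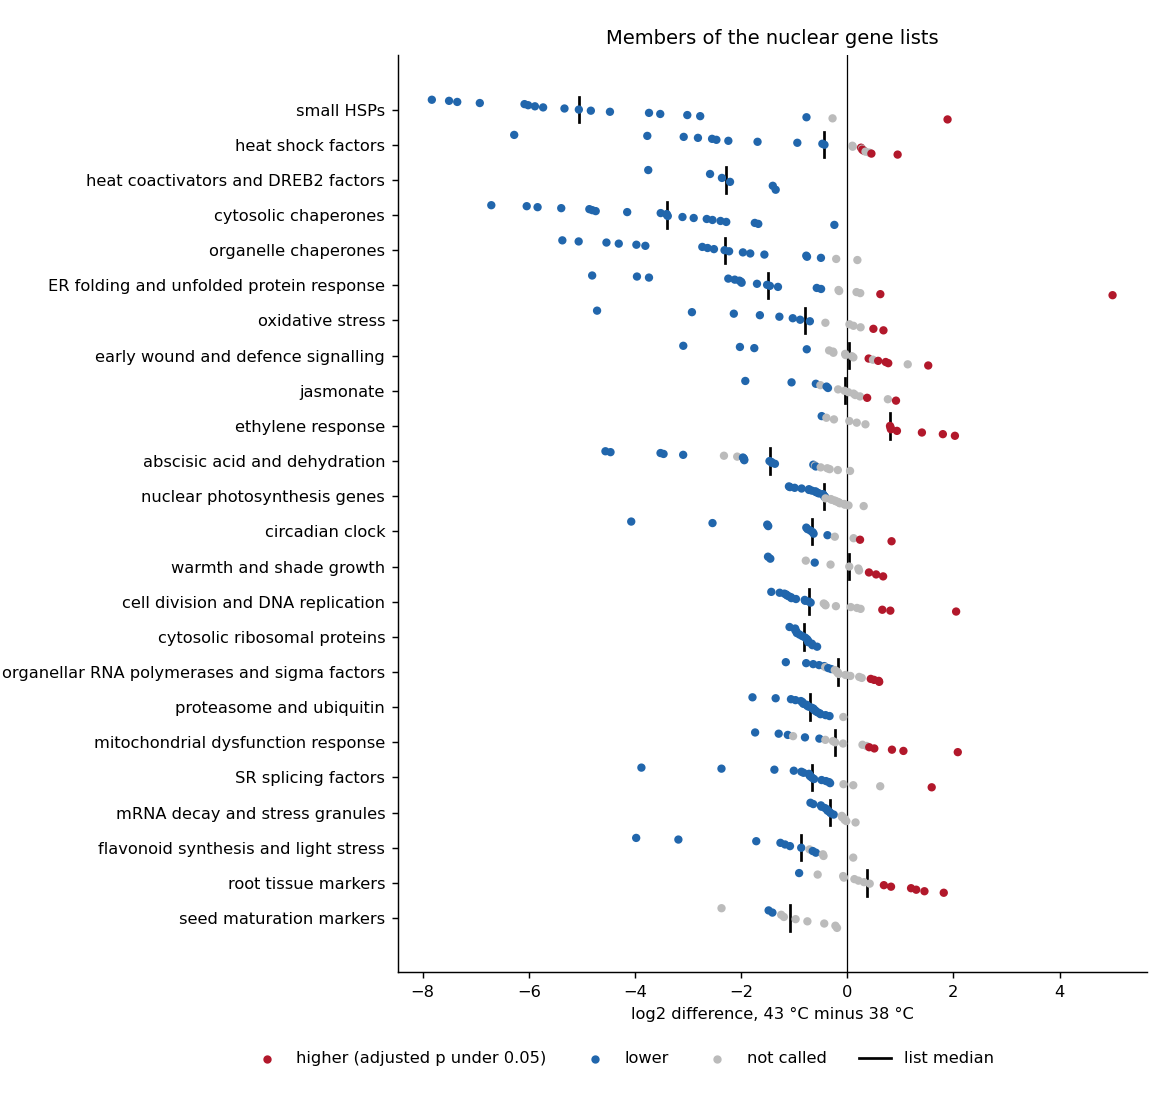
Log2 difference of 43 °C minus 38 °C (horizontal axis) for each tested member of the 24 nuclear lists (rows), coloured by the call of the fit over all sequences, with each list's median as a bar. The small HSPs, with a median of -5.06, and the cytosolic chaperones, with -3.40, lie farthest to the left. BIP3 is the point at 5.0.

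Oxidative stress: 8 of 14 genes were lower and 2 higher, with a median of -0.80. APX2, the heat-inducible ascorbate peroxidase, stood at 33.7, 38.5 and 41.9 CPM after 38 °C, 1.11, 1.58 and 1.67 CPM after 43 °C and 0.0605, 0.0487 and 0.173 CPM in controls (-4.71 ± 0.22). The zinc finger factors ZAT12 (-2.93 ± 0.26), ZAT6 (-2.14 ± 0.22) and ZAT7 (-1.65 ± 0.23) were lower. No gene was higher by a log2 of 1. The NADPH oxidases RBOHD (0.49 ± 0.20) and RBOHF (0.68 ± 0.08) were higher. The number higher was 4 with no scaling factor or upper-quartile factors. It was 1 with no low-count filter and without any 1 of priming replicates 2 and 3 and heat shock replicates 1, 2 and 3.

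Abscisic acid and dehydration: 15 of 23 genes were lower and none higher, with a median of -1.46. GOLS1, a galactinol synthase driven by heat shock factors, stood at 2929, 3223 and 2990.3 CPM after 38 °C, 112, 151 and 126 CPM after 43 °C and 26.8, 24.1 and 25.9 CPM in controls (-4.56 ± 0.14). The gene overlaps another annotated gene. GOLS2, its drought-responsive relative, stood at 117, 103 and 89.7 CPM after 38 °C, 10.7, 9.35 and 6.98 CPM after 43 °C and 27.5, 27.2 and 32.9 CPM in controls (-3.52 ± 0.16), with the 43 °C libraries below the controls. The stress factor NAC019 (-4.46 ± 0.19) and the phosphatase HAI1 (-3.46 ± 0.65) were lower as well, and so were RAB18 (-1.94 ± 0.13) and COR47 (-1.97 ± 0.19), both dehydrins.

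Ethylene response: 7 of 13 genes were higher and 1 lower, with a median of 0.81, beside 31.3% of nuclear loci higher. ERF11, an ethylene response factor of the repressor kind, stood at 14.1, 6.98 and 7.91 CPM after 38 °C, 32.6, 33.3 and 34.8 CPM after 43 °C and 8.26, 6.49 and 12.5 CPM in controls (1.80 ± 0.45). Its 43 °C libraries were above all libraries of the other groups. ERF5 was higher (1.41 ± 0.25) at 19.3, 17.3 and 19.0 against 7.26, 6.99 and 6.71 CPM. Its controls stood at 12.6, 10.4 and 19.0 CPM, so they overlapped the 43 °C libraries and lay above the 38 °C libraries. ERF105 (2.03 ± 0.49) and EBF2 (0.94 ± 0.20), an F-box gene of EIN3 turnover, were also higher, and both overlap an expressed gene. EIN3, the central factor of the pathway, was lower (-0.48 ± 0.09), a call that was lost with no scaling factor. With a log2 of at least 1 as well, 3 genes were higher and none lower.

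Wound, cold and defence signalling: 5 of 18 genes were higher and 4 lower, near the background shares. WRKY22, a factor of immune signalling, stood at 20.2, 22.4 and 22.5 CPM after 38 °C, 51.3, 65.9 and 70.5 CPM after 43 °C and 26.3, 23.3 and 34.1 CPM in controls (1.53 ± 0.17). The touch gene TCH4 (-2.02 ± 0.46) and the cold factors CBF3 (-3.09 ± 0.44) and CBF1 (-1.75 ± 0.47) were lower. The number higher was 9 with no scaling factor. It was 3 with no low-count filter and without priming replicate 2 or 3 or heat shock replicate 1 or 3, and 1 with a log2 of at least 1. The median was 0.03, and -0.04 without priming replicate 2.

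Jasmonate: 5 of 15 genes were lower and 2 higher, beside 31% and 31.3% of nuclear loci, so the lower share was near the background. The median of -0.05 turned to 0.32 with no scaling factor, 0.09 with upper-quartile factors and 0.10 without priming replicate 1. The repressor JAZ10 was lower (-1.05 ± 0.25). LOX3, a lipoxygenase of jasmonate synthesis, was higher (0.92 ± 0.30), with adjusted p between 0.0592 and 0.0788 with no low-count filter, without priming replicate 2 or 3 or without heat shock replicate 1. JAZ8 was lower (-1.92 ± 0.76) at 0.0563 against 0.220 CPM, a call lost in 7 alternatives, 5 of them leaving out priming replicate 1, 2 or 3 or heat shock replicate 1 or 2. JAZ2 was lower (-0.59 ± 0.14) but not with no scaling factor. The counts were 6 higher and 1 lower with no scaling factor and 4 and 2 with upper-quartile factors. Without priming replicates 1, 2 and 3 in turn 4, 0 and 1 genes were higher, and 1 without heat shock replicate 1 or 3 or with no low-count filter. None was higher and 2 were lower by a log2 of at least 1.

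Nuclear photosynthesis genes: 17 of 29 were lower and none higher, with a median of -0.43. The Rubisco small subunit genes RBCS3B (-1.10 ± 0.16), RBCS1B (-1.08 ± 0.15) and RBCS2B (-0.99 ± 0.18), which are near-identical, led the list. RBCS3B stood at 1882, 1177 and 1172 CPM after 38 °C and 645, 659.6 and 670.3 CPM after 43 °C, with 781, 698 and 600.0 CPM in controls. ATPD, a subunit of the plastid ATP synthase, differed by -0.86 ± 0.11. LHCB1.3, a light-harvesting protein, was not called (0.31 ± 0.17). Unscaled, 7 were lower and 4 higher, with upper-quartile factors 1 was higher, and without priming replicate 1 also 1. A log2 of -1 was passed by 2.

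Flavonoid synthesis and light stress: 9 of 13 were lower and none higher, with a median of -0.87. ELIP1, an early light-induced protein of the thylakoid, stood at 1907, 1932 and 1631 CPM after 38 °C, 129, 119.7 and 99.1 CPM after 43 °C and 253, 165 and 116 CPM in controls (-3.98 ± 0.26). ELIP2 (-1.71 ± 0.24) and FLS1, a flavonol synthase (-1.26 ± 0.23), were lower. MYB111, a flavonol factor, differed by -3.18 ± 0.80 at 0.0114 against 0.109 CPM, and by -2.46 without priming replicate 2. At this level the fitted value rests on few counts and is no bound.

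Proteasome and ubiquitin: 21 of 22 genes were lower, with a median of -0.70. NAC78, a factor that drives proteasome genes, differed by -1.79 ± 0.08 at 63.1, 56.2 and 56.3 against 192, 209 and 204 CPM. The polyubiquitin gene UBQ14 (-1.35 ± 0.13) and the core subunits PBA1 (-1.06 ± 0.08) and PAG1 (-0.98 ± 0.08) were lower. The polyubiquitin genes share repeats and NAC78 and UBQ14 overlap other genes. Unscaled, 11 were lower, and 3 passed a log2 of -1.

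Splicing factors of the SR family: 16 of 20 were lower and 1 higher, with a median of -0.67. SR45a, which is known to rise in heat, stood at 763, 945 and 837 CPM after 38 °C, 54.1, 63.3 and 55.7 CPM after 43 °C and 26.3, 28.6 and 22.2 CPM in controls (-3.88 ± 0.13). SR30 (-2.37 ± 0.10) and SCL33 (-1.37 ± 0.10) were lower. RS31a was higher (1.59 ± 0.14) and overlaps AT2G46600, a gene of 210.1 CPM in controls. Unscaled, 6 were lower and 3 higher, 3 were higher with upper-quartile factors, and 2 with RLE factors or DESeq2. A log2 of -1 was passed by 4.

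Ribosomal proteins of the cytosol: all 14 were lower, with a median of -0.82 and 1 of them beyond a log2 of -1. RPL24B stood at 35.3 ± 2.75 CPM (SD, n = 3) after 38 °C, 16.6 ± 2.90 CPM after 43 °C and 28.6 ± 2.55 CPM in controls (-1.09 ± 0.14), with no overlap of the 43 °C libraries with either group. RPS27B (-0.98 ± 0.13), RPS13A (-0.98 ± 0.09) and RPL5B (-0.96 ± 0.11) followed.

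mRNA decay and stress granules: 10 of 16 were lower and none higher, with a median of -0.32. UBP1B, an RNA-binding protein of stress granules, differed by -0.69 ± 0.10. The decay subunit LSM1A (-0.64 ± 0.13) and the poly(A)-binding proteins PAB2 (-0.50 ± 0.09) and PAB4 (-0.49 ± 0.08) were also lower. None of the 10 calls was left with no scaling factor, where 2 genes were higher and the median was 0.05. With upper-quartile factors 1 was higher, and no gene passed a log2 of -1.

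Cell division and DNA replication: 13 of 23 were lower and 3 higher, with a median of -0.72. Lower calls included genes of DNA replication. TSO2, a ribonucleotide reductase subunit, differed by -1.43 ± 0.11, MCM2 by -1.27 ± 0.17 and MCM7 by -1.18 ± 0.18, both subunits of the replicative helicase. CYCD3;1, a cyclin of cell cycle entry, stood at 3.26, 3.41 and 2.58 CPM after 38 °C and 13.4, 12.3 and 12.9 CPM after 43 °C (2.05 ± 0.18). It overlaps AT4G34150, a gene of 66.4 CPM in controls, and the part of that gene in its counts was not tested. Unscaled, 7 were lower. A log2 of -1 was passed by 8 and a log2 of 1 by CYCD3;1 alone.

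Circadian clock: 10 of 14 were lower and 2 higher, with a median of -0.67. PRR7, a morning repressor, stood at 86.0, 113 and 117 CPM after 38 °C, 38.3, 37.3 and 35.2 CPM after 43 °C and 26.8, 33.0 and 25.9 CPM in controls (-1.51 ± 0.12). PRR9 (-1.49 ± 0.25) and BOA (-2.54 ± 0.28) were lower. ELF4 differed by -4.07 ± 0.90 at 0.00582 against 0.115 CPM, and by -6.78 without heat shock replicate 3, again from few counts. The groups were treated after 2 h of light, per the labels. With no scaling factor 4 were lower, and 4 passed a log2 of -1 with none above 1. With no low-count filter, organellar loci left out, or any library but priming replicate 3 left out, 1 was higher.

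Warmth and shade growth: 3 of 11 were higher and 3 lower, near the background shares of 31.3% and 31% of nuclear loci. The auxin genes IAA19 (-1.49 ± 0.18) and YUC8 (0.68 ± 0.15) differed in opposite directions between the heat groups. Mean YUC8 was 2.26 CPM in the priming, 3.61 CPM in the heat shock and 13.8 CPM in the control libraries. Both heat groups thus lay below the controls in YUC8. Mean IAA19 was 3.73, 1.33 and 2.05 CPM in the same order, with the heat shock libraries below the controls and the priming libraries above them. The cell wall enzyme XTH15 was lower (-1.45 ± 0.24), as was HFR1 (-0.61 ± 0.13), the latter not with no scaling factor, where 5 genes were higher. No member was higher by a log2 of 1.

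Organellar polymerases and sigma factors: 4 of 21 were higher and 7 lower, beside 31.3% and 31% of nuclear loci, so the lower share was near the background. The median of -0.18 turned to 0.19 with no scaling factor, where none was lower. The phage-type polymerases RPOTMP (0.59 ± 0.15), RPOTM (0.51 ± 0.12) and RPOTP (0.44 ± 0.09) were all higher, and RPOTM overlaps an expressed gene. SIG5, a stress-induced sigma factor of the plastid polymerase, differed by -1.16 ± 0.36, with adjusted p of 0.0733 with no scaling factor, 0.0786 without priming replicate 1 and 0.0613 without heat shock replicate 3. The polymerase-associated proteins PTAC7 (-0.77 ± 0.14) and PTAC3 (-0.64 ± 0.10) were lower except with no scaling factor, and MURE was higher (0.60 ± 0.14). Without heat shock replicate 3, 4 were lower, and SIG5 alone passed a log2 of 1 in either direction.

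Mitochondrial dysfunction response: 5 of 17 were higher and 5 lower, near the background shares of 31.3% and 31% of nuclear loci. The median of -0.23 turned to 0.19 with no scaling factor, where 3 were lower. DIC2, a carrier of the inner mitochondrial membrane, stood at 11.9, 5.66 and 6.41 CPM after 38 °C, 41.3, 29.2 and 30.7 CPM after 43 °C and 9.97, 4.90 and 12.5 CPM in controls (2.08 ± 0.54), above both other groups. It lies end to end with REN1, 229 bases away, at 5.16 CPM in controls. OM66 (-1.29 ± 0.20), NDB2 (-1.12 ± 0.11) and GSTU25 (-1.74 ± 0.47) were lower. AOX1A, the alternative oxidase that marks this response, was not called (-0.23 ± 0.26). With a log2 of at least 1 as well, 2 were higher and 3 lower.

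Markers of other material were also counted, beside 31.3% of all nuclear loci higher and 31% lower. Of 14 root markers 6 were higher, among them GPAT5 (1.82 ± 0.31), BGLU21 (1.46 ± 0.12), BGLU22 (24.9 against 10.1 CPM) and CYP86A1 (1.20 ± 0.25), and 1 (CASP2, -0.91 ± 0.28) was lower, not so without priming replicate 1, without heat shock replicate 1 or with no low-count filter. Their summed level was 1170 to 1349 CPM after 43 °C, 761 to 874 CPM after 38 °C and 1324 to 1528 CPM in controls. Of 10 seed markers tested (SESA1 was too low), EM6 (-1.48 ± 0.22) and OLEO2 (-1.41 ± 0.16) were lower, with 4 lower by DESeq2 or without priming replicate 3 and 5 in a fit of the 6 libraries alone. The seed sums were 16.7 to 23.3 CPM after 43 °C, 43.7 to 63.0 CPM after 38 °C and 22.3 to 56.5 CPM in controls. No defining root marker was at 0 in either group. The part of root and seed tissue in the other differences was not tested.

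Outside the lists, the 12 increases named are the largest among protein-coding loci with a symbol and at least 20 CPM, and 3 of them are receptor kinases. FLS2, the flagellin receptor, stood at 4.61, 5.09 and 6.82 CPM after 38 °C, 28.8, 47.0 and 53.0 CPM after 43 °C and 11.6, 13.9 and 15.1 CPM in controls (2.97 ± 0.26). FRK1, a receptor kinase induced by flagellin, stood at 3.92, 5.05 and 4.53 CPM after 38 °C, 24.1, 32.1 and 36.3 CPM after 43 °C and 12.7, 12.9 and 12.2 CPM in controls (2.77 ± 0.14). In both genes the 38 °C libraries lay below the controls and the 43 °C libraries above them. Both overlap an expressed gene.

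MAPKKK14 (3.11 ± 0.42), a kinase of a MAP kinase cascade, and CRK13 (2.22 ± 0.18), a cysteine-rich receptor kinase, were also higher. PYL6, an abscisic acid receptor, stood at 14.3, 9.67 and 12.6 CPM after 38 °C and 45.7, 85.7 and 82.9 CPM after 43 °C (2.55 ± 0.48), with 37.3, 49.7 and 12.9 CPM in controls, of which the lowest lay within the 38 °C range and the highest above the lowest 43 °C library. KCS12, a fatty acid elongase, was higher by 2.32 ± 0.21. The remaining increases named by the rule were in PMT6 (2.84 ± 0.21), a polyol transporter, ERF73 (2.29 ± 0.39), a hypoxia factor, ABCG42 (2.25 ± 0.27), BT5 (2.13 ± 0.13) and OPT1 (2.12 ± 0.11), an oligopeptide transporter. ATPC2, a plastid ATP synthase gene, was higher by 2.14 ± 0.08 at 24.2, 24.4 and 23.9 against 5.50, 5.62 and 5.36 CPM. It overlaps AVP1, the vacuolar proton pump gene, at 394 CPM in controls. ERF73 likewise overlaps P40 at 112 CPM, and ABCG42, BT5 and OPT1 overlap genes of 23.3, 1.21 and 16.4 CPM.

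The decreases outside the lists, named by the same rule, included genes that stood close to the control level after 43 °C. FKBP53, an immunophilin that acts as a histone chaperone, stood at 198, 193 and 204 CPM after 38 °C, 7.93, 9.39 and 8.72 CPM after 43 °C and 8.61, 8.61 and 8.43 CPM in controls (-4.51 ± 0.10). Its 43 °C libraries lay on both sides of the controls. PPI2, a proton pump interactor, stood at 44.7, 38.9 and 43.8 CPM after 38 °C, and its 1.17, 0.960 and 0.960 CPM after 43 °C overlapped the 1.20, 0.584 and 0.680 CPM in controls (-5.36 ± 0.24). PFK3, a phosphofructokinase, differed by -4.71 ± 0.15, TIN1, known from unfolded protein stress, by -4.24 ± 0.16, and EMB3111 by -4.16 ± 0.18. EGY3, a plastid protein of the EGY protease family, differed by -4.02 ± 0.17 but was still at 16.6 CPM against 2.16 CPM in controls. SAP10, a zinc finger stress protein, differed by -3.79 ± 0.18, the derlin gene DER1 by -3.74 ± 0.11 and NF-YC2, a subunit of the CCAAT-binding factor, by -3.73 ± 0.13. PTR5, a peptide transporter (-4.12 ± 0.26), and RBL14, of the rhomboid family (-3.85 ± 0.16), were lower too. EGY3, NF-YC2, PTR5 and RBL14 overlap another annotated gene.

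**Figure D4:**
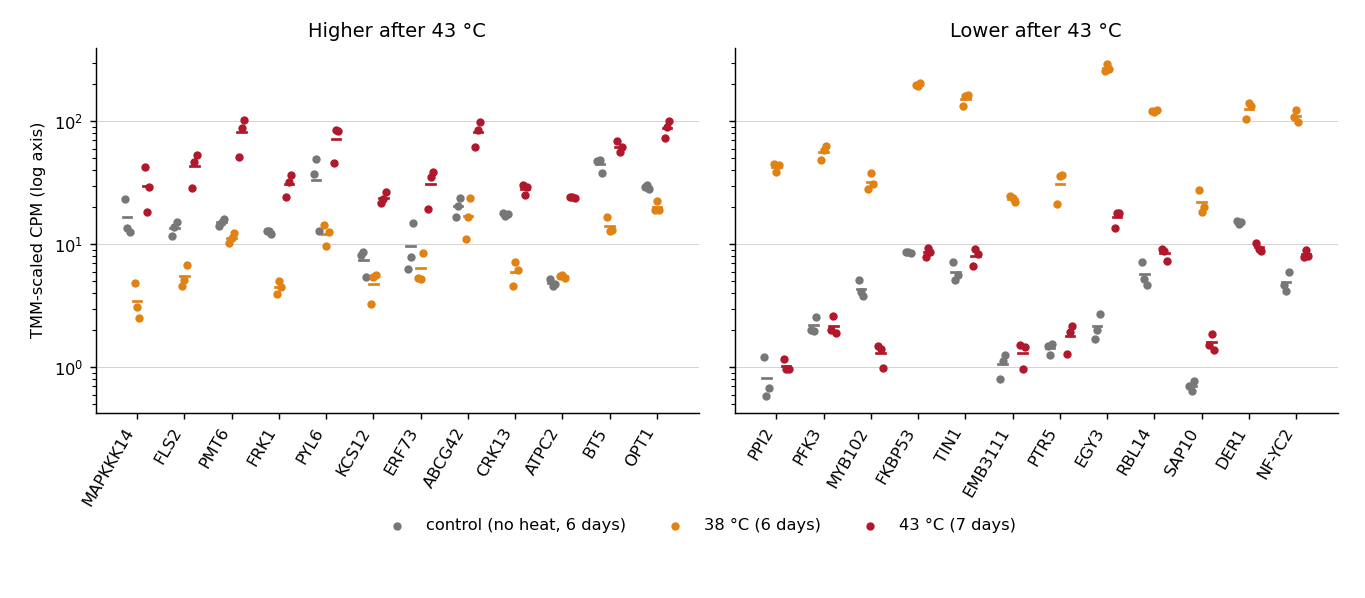
Scaled CPM (log axis) of the 12 largest increases (left) and 12 largest decreases (right) outside the lists in each control, 38 °C and 43 °C library (points; short bars are group means of 3). On the right, the means of FKBP53, PFK3 and PPI2 after 43 °C lie close to those of the controls and far below those after 38 °C. On the left, FLS2, FRK1 and MAPKKK14 lie below the controls after 38 °C.

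In a further set of genes the 43 °C libraries lay beyond both other groups. MYB102, a stress-responsive factor, stood at 28.1, 38.1 and 31.0 CPM after 38 °C, 1.49, 1.41 and 0.995 CPM after 43 °C and 4.33 ± 0.696 CPM (SD, n = 3) in controls (-4.64 ± 0.18). TGG1, the myrosinase of guard cells, stood at 57.2 ± 1.96 CPM (SD, n = 3) after 38 °C, 14.4 ± 2.18 CPM after 43 °C and 56.4 ± 1.52 CPM in controls (-1.99 ± 0.10). The 38 °C and control libraries overlapped and the 43 °C libraries lay below both. EXO (-1.96 ± 0.40), which promotes cell expansion, MLP28 (-2.44 ± 0.57) and the defensin-like LCR68 (-1.60 ± 0.15) were lower than in both groups as well. On the upper side, CAF1a, a deadenylase that shortens poly(A) tails, stood at 27.4, 13.4 and 19.9 CPM after 38 °C, 78.3, 68.4 and 67.9 CPM after 43 °C and 19.4, 14.6 and 19.3 CPM in controls (1.83 ± 0.42). No expressed gene lies within 1000 bases of CAF1a. ERF11, DIC2, PMT6, ABCG42 and ATPC2 also lay above both groups, and GOLS2 below both.

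The values against the controls, which both comparisons share, are set side by side. HSFA2 differed from the control by 10.15 at 38 °C and 7.07 at 43 °C, HSP101 by 9.10 and 4.30, and HSP21 by 10.49 and 3.56. The medians against control were 9.96 and 3.61 for small HSPs, 5.23 and 1.34 for cytosolic chaperones, and 2.36 and 0.20 for organelle chaperones. For folding in the endoplasmic reticulum they were 0.90 and -0.43, and for the abscisic acid list 1.04 and -0.74. Of all nuclear loci, 27.5% were higher and 27.6% lower after 38 °C than in controls, and 25% and 26.8% after 43 °C.

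The plastid share of counts was 54.1% ± 3.93 (SD, n = 3) after 43 °C and 44.1% ± 3.65 after 38 °C, which differ by 10.03 points (exact permutation test, p = 0.1). The transcript of psbA, for the D1 protein of photosystem II, held 37.1%, 41.9% and 43.8% after 43 °C against 31.1%, 27.1% and 30.6% after 38 °C, with no overlap (p = 0.1, exact permutation test). Leaving psbA out of all counts brought the plastid difference to 1.77 points (p = 0.5 by the same exact test). By harvest date the plastid difference was 2.65, 15.2 and 12.2 points. Mitochondrial transcripts took 1.78% ± 0.0266 after 43 °C and 1.78% ± 0.0894 after 38 °C (p = 1, exact permutation test), and by date the sign was not the same. With psbA left out of all counts, the mitochondrial difference was 0.485 points (p = 0.1, exact permutation test).

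Heat proteins are counted in the same total, and their part in these differences was not tested. Scaled to the bulk of sequences, psbA differed by 0.08 ± 0.24 and was not called. On that scale 73 of 90 plastid loci were lower after 43 °C (81.1%) and none higher. The largest decreases were in atpF (-2.17 ± 0.20), atpI (-1.60 ± 0.14) and atpB (-1.59 ± 0.19), which code for the plastid ATP synthase, and in the ribosomal protein gene rpl16 (-1.62 ± 0.15). atpB stood at 5277, 3226 and 3752 CPM after 38 °C and 1152, 1449.6 and 1476 CPM after 43 °C, with 2359, 2326 and 2244 CPM in controls, and the heat groups did not overlap.

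By function, 19 of 33 plastid photosynthesis genes were lower (median -0.55), 8 of 9 NDH genes (median -0.68) and 46 of 48 of the remaining plastid loci (median -0.82). Of 123 mitochondrial loci, 75 were lower (61%) and none higher. These were 8 of 11 respiratory chain genes, 2 of 4 genes of cytochrome c maturation and transport, 6 of 7 ribosomal protein genes and 59 of 101 others. With a log2 of at least 1 as well, 7 plastid photosynthesis genes, 0 NDH genes and 15 of the remaining plastid loci were lower. In the mitochondrion 4 of the others were lower and none of the remaining 3 groups. Without priming replicate 1, 5 respiratory genes were lower, and without heat shock replicate 1, 4. With no scaling factor 8 plastid and 6 mitochondrial loci were higher, and 12 mitochondrial loci lower. Scaled within the plastid alone, 26 loci were higher and 27 lower, and within the mitochondrion 15 and 25, so the lower level of the organelles as a whole is a statement relative to the nuclear bulk. Without heat shock replicate 1, and with upper-quartile factors, 2 plastid loci were higher.

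Loci that were almost silent in unheated seedlings gained reads after 43 °C. This set was chosen after the data were seen, on the controls alone, as nuclear loci with at most 5 counts in every control library. Its 9725 loci summed to 97.0, 91.9 and 93.7 CPM after 38 °C and to 284, 340.3 and 343 CPM after 43 °C, a ratio of 3.42 (exact permutation test, p = 0.1). In the primed heat shock libraries, at 43 °C after an earlier heat at 38 °C and recovery, the sum was 333 to 387 CPM. At least 10 counts in every library of the group were reached by 51 loci after 38 °C and 516 after 43 °C, and 7047 loci had 0 counts in every 43 °C library. This cut is on raw counts and was not corrected for depth. Priming libraries 1 and 3 held fewer aligned reads than any heat shock library, and the part of depth in this contrast was not tested.

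The position of these loci in the genome went with the gain. Neighbours were taken as nuclear loci of at least 1 CPM in controls. Of 500 loci with coordinates that reached 10 counts in every 43 °C library, 95.2% had such a neighbour within 1000 bases, against 1203 of the 6773 loci at 0. Both sets were picked by their counts after 43 °C, so they are a description only. Over all 9330 loci of the set with coordinates the share was 28.9%. For the 51 loci seen after 38 °C the share was 76.5%.

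The loci are given by the orientation of the nearest neighbour. Where the 3′ end of the neighbour faced the locus from upstream on the same strand, 24.7% of 631 loci were seen after 43 °C and 1.27% after 38 °C. Where the pair lay end to end, the values were 29.4% and 1.38% of 653 loci. Where the 5′ end of the neighbour faced the locus, they were 4.58% and 1.58% of 633 loci for a downstream neighbour on the same strand, and 1.01% and 0.202% of 495 loci for a start-to-start pair. Where the locus overlapped an expressed one, they were 33.0% and 3.86% of 285 loci, the highest of the 6 configurations. With no expressed neighbour within 1000 bases they were 0.362% and 0.181% of 6633 loci. In summed CPM, end-to-end loci stood at 18.3, 16.9 and 16.0 after 38 °C and at 98.1, 119 and 125 after 43 °C. Loci ahead of a same-strand neighbour's start stood at 11.0, 11.8 and 11.4 after 38 °C and at 11.9, 12.5 and 11.3 after 43 °C.

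**Figure D5:**
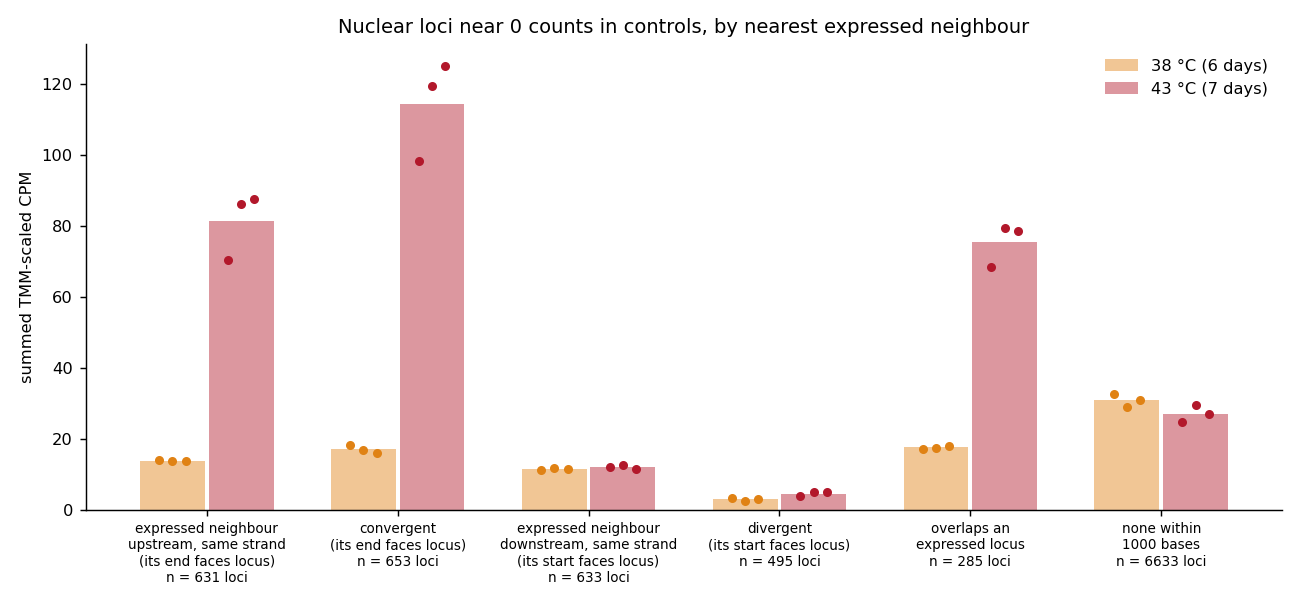
Summed scaled CPM (vertical axis) of nuclear loci near 0 counts in controls after 38 °C and after 43 °C, grouped by the orientation of the nearest expressed neighbour within 1000 bases (bars are means of 3 libraries, points the libraries). Where the neighbour's end faces the locus, the 43 °C sums are 81.3 and 114 against 13.7 and 17.0 after 38 °C. Where its start faces the locus they are 11.9 and 4.52 against 11.4 and 2.92, and for loci that overlap an expressed one 75.4 against 17.5.

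The set of all nuclear loci tested that were under 1 CPM in controls includes loci described above, and such loci may have passed the filter on counts through 1 group alone, so their shares are no second observation. Of these, 58.6% were higher after 43 °C where a same-strand neighbour ended upstream and 68.6% where the pair lay end to end. The share was 27.2% where the neighbour lay downstream on the same strand, 29.3% start to start, 68.9% where the locus overlapped an expressed one and 21.2% with no such neighbour. Among loci of at least 1 CPM the same 6 shares ran from 17.1% to 32.9%. No strand setting of the counting is given in the sources used here, though the libraries were strand-specific per the labels, so reads of a locus and reads of its opposite strand cannot be told apart here. The part of the neighbours' reads in these gains was not tested.

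The examples are the protein-coding loci of this set with a symbol, free of overlap, that had the highest mean level after 43 °C. The rule was added after the values were seen. They were picked through the group where they are high, so they do not give the size of the gain over the set. TET17, of the tetraspanin family, had 0, 1 and 2 counts after 38 °C and 235, 218 and 336 after 43 °C. UGT78D3, a flavonol glycosyltransferase, had 0, 2 and 6 counts and then 150, 146 and 188. PRA1.C had 0 counts in each 38 °C library and 104, 85 and 122 after 43 °C. TPK4, a potassium channel of pollen, was the exception among the 8 examples, with 1.55, 1.60 and 1.62 CPM after 38 °C and 1.18, 1.10 and 1.06 CPM after 43 °C.

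Exon numbers describe the loci tested, and a locus near 0 in the other groups passed the filter on counts through the group where it was high. Of the nuclear protein-coding loci tested, 30.1% were higher and 32% lower. Of all of them 17.9% have a single annotated exon, against 25.8% of those higher, 11.1% of those lower and 41.9% of the 904 higher by a log2 of at least 3. These 904 stood at a median of 0.0183 CPM after 38 °C, 0.0314 CPM in controls and 0.509 CPM after 43 °C. The loci lower by at least that much stood at a median of 40.8 CPM after 38 °C and 2.18 CPM after 43 °C.

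Among the entries tested that are not protein-coding genes, more were called higher than lower. Of 1028 noncoding entries tested, 61.2% were higher after 43 °C and 6.32% lower, with a median difference of 2.02. Of 1490 transposon, intergenic and other entries, 58.1% were higher and 8.86% lower, with a median of 1.60. Of 45 precursor entries of microRNAs, 62.2% were higher and 8.89% lower, with a median of 2.51. Libraries of total RNA count precursors and not mature microRNAs. With 3 libraries a group at these depths, a low-level entry passes the filter on counts when 1 group is high, so these shares describe the entries tested and not all of them. For entries near 0 in controls, chosen on the controls alone, the ratio of summed CPM was 4.99 for noncoding entries. It was 1.13, with overlapping groups, for transposon, intergenic and other entries.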

How the data were processed

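Strand-specific libraries of RNA depleted of ribosomal RNA were made from whole seedlings, per the labels' protocols. The deposited files hold raw counts, 1 read count per reference sequence and library. Bowtie2, SAMtools, DESeq2 and TAIR10 are named in the submitters' processing notes, without versions or roles, and the strand setting is not given in the sources used here. Nearly every locus has 1 entry, and 17 ribosomal RNA entries were left out.

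All 12 libraries entered 1 fit with edgeR 4.0.16 in R 4.3.3 (filterByExpr, minimum count 10, TMM, group means, quasi-likelihood test of heat shock minus priming, Benjamini-Hochberg over 26159 sequences). Shares and sums were compared with exact permutation tests (scipy 1.17.1). Intervals at 95% (Wilson) on a share were at most 0.0115 points each way and cover counting error only. Between replicates, chi-square per degree of freedom was 15.7 to 110.9, so no libraries were merged. On simulated data, 98.5% of 200 sequences changed by a log2 of 1 were recovered, with 7 false calls among 25368 sequences. The simulation gave all sequences a common dispersion and left all but these 200 equal between groups. It therefore cannot show how the calls depend on scaling when many sequences change, as here.

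The members, lists and rules were chosen with earlier results of these data known. Up to 4 members a list were named by the size of their difference among those called, with HSFA2, HSP101 and HSP21 always. Outside the lists the 12 largest in each direction were named, and 6 in each direction beyond both other groups, among protein-coding loci with a symbol, at least 20 CPM and no overlap. Other members were named after their values were seen. Overlap with another annotated gene is stated above for some named genes and not for all. FES1A, ERDJ3A, CBF3, JAZ10, BOA, XTH15, TSO2, MCM7, PTAC7, RPS13A, UBP1B and LSM1A also overlap another gene. Symbols and coordinates are from RefSeq (TAIR10.1), and 100 of 118 organellar symbols were matched by coding length. Same-numbered libraries share a harvest date; their deviations from the group means correlated at -0.0475, -0.0107 and -0.0160. Alternatives were other scalings, DESeq2 1.42.0, no count filter, the 6 libraries alone, the date as a replicate block, each library left out, and a minimum log2 of 1.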

Additional observations from a re-analysis of the deposited data

How the results depend on the processing

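The count of loci higher after 43 °C (8834) ran from 8231 in a fit of the 6 libraries alone to 12009 with no scaling factor, and that of loci lower (7598) from 2851 with no scaling factor to 7623. A minimum log2 of 1 left 5251 higher and 2101 lower. DESeq2 gave 9325 and 7525, upper-quartile factors 10350 and 6009. With the replicate block the counts were 8910 and 7623, the paired exact test of each share gave p = 0.25 or more, the smallest that 3 pairs allow, and beside the 1 organelle chaperone named above the block moved no other count of calls by over 1.5 times and changed the call of no named gene. Leaving out single libraries gave 8245 to 8700 higher and 6842 to 7399 lower.

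The heat protein share with nuclear loci as the denominator differed by -21.3 points, and by -12.1 to -10.9 with libraries left out. The plastid share was 1.77 points with psbA left out, and 8.00 to 12.2 with libraries left out. The mitochondrial share turned from -0.00164 points to 0.485 with psbA left out (exact permutation test, p = 0.1). It was 0.0370 and 0.00870 without priming replicate 1 or 3, and 0.0129 without heat shock replicate 3. With libraries left out in turn it ran from -0.0506 to 0.0370. Plastid loci called higher numbered 8 with no scaling factor, 2 with upper-quartile factors, 26 when scaled within the plastid, where 27 were lower, and 0 to 2 with libraries left out. Mitochondrial loci called higher numbered 6 with no scaling factor and 15 when scaled within the mitochondrion. Those called lower numbered 12, 46 with upper-quartile factors and 25 within the mitochondrion, and 52 to 76 with libraries left out. The log2 ratio of summed CPM of nuclear loci near 0 in controls, 1.78, was 2.08 for loci at 0 in every control, 1.38 at up to 20 counts, 2.15 unscaled and 1.73 to 1.86 with libraries left out. These alternatives of the sums were chosen after seeing the data. The cause was not tested for any of them, beyond what leaving features or libraries out does by construction.

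With 3 libraries a group no exact test can go below p = 0.1. Groups differ in age as well as temperature. TMM factors were 0.648 to 0.819 in the priming and 0.896 to 1.07 in the heat shock libraries, so small differences of opposite sign across scalings, as in the jasmonate, polymerase and mRNA decay lists, have no settled direction. Low-level loci are limited by counting error.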

Other observations

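Noncoding entries with at most 5 counts in every control library, 12149 of 13230, summed to 27.8, 24.7 and 24.8 CPM after 38 °C and to 113, 135 and 138 CPM after 43 °C, a ratio of 4.99 (exact permutation test, p = 0.1). The transposon, intergenic and other entries chosen in the same way, 37012 of 38764, summed to 133, 101.3 and 118 CPM after 38 °C and to 115, 141 and 144 CPM after 43 °C, a ratio of 1.13 (exact permutation test, p = 0.3). In these entries the groups overlapped, while 199 entries reached 10 counts in every 43 °C library and 16 in every 38 °C library. That cut, too, is on raw counts without correction for depth.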
